A study of Mus musculus with 6 samples.

Results

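The microtubule motor genes of mouse cerebral cortex were compared between ribosome-bound RNA and whole-tissue RNA. They were taken by symbol: every kinesin (Kif, Kifc), kinesin light chain (Klc), cytoplasmic dynein (Dync, Dynl) and dynactin (Dctn) gene. This gave 67 of the 32531 gene symbols in the files, of which 42 were Kif, 4 Klc, 7 Dync, 8 Dynl and 6 Dctn symbols. One of the Kif symbols, Kif4-ps, is a pseudogene and had no reads. The mice were adults carrying Htr4-EGFP/Rpl10a (line ES1299), a transgene that places an EGFP tag on ribosomes, through the subunit Rpl10a, in cells that use control elements of Htr4, a serotonin receptor gene. The series names pyramidal neurons as the cells profiled. RNA on tagged ribosomes, immunopurified with antibodies against EGFP (IP, 3 libraries), was compared with input RNA (3 libraries) of the same line, untreated in both groups. All mice carried the tag, and the labels give neither sex nor whether the replicates came from separate animals, so the p-values speak of the spread among these 6 libraries alone, which may be technical. The tag marks whichever cells use the transgene of this 1 line.

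Kinesins walk along microtubules mostly towards their plus ends, which in axons point away from the cell body, and carry vesicle precursors, mitochondria and RNA outwards. Cytoplasmic dynein walks towards minus ends and, together with dynactin, returns endosomes and signals to the cell body. Both are assemblies: long heavy chains hold the motor domain, and lighter subunits bind cargo or hold the complex together. Neurons depend on them because their axons are long, and mutations of several heavy chain genes cause human neuropathies or brain malformations.

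Libraries held 53147173 to 67559533 reads on genes in IP and 37696125 to 52360452 in input, so 3 reads, taken as the floor of detection, stood for 0.0444 to 0.0564 CPM in IP and 0.0573 to 0.0796 CPM in input. CPM are reads per 1000000 gene reads, here with library sizes scaled by the TMM method. Fold changes are log2 values of IP over input, with a standard error (SE). Htr4 had 19.9 ± 2.36 CPM in IP and 7.88 ± 0.265 CPM in input (SD, n = 3 each). Of the 9 neuronal markers, 4 were higher and 0 lower in IP, with a median log2 fold change of 0.32, and their summed level was 31462 to 33040 CPM in IP and 22701 to 26119 CPM in input. All 8 astrocyte, 8 oligodendrocyte, 5 oligodendrocyte precursor and 8 microglial markers were lower, as were 6 of the 7 tested endothelial ones (summed 0.278 to 1.09 CPM in IP and 5.83 to 12.1 CPM in input). The summed level of the astrocyte markers was 733 to 897 CPM in IP and 3675 to 4314 CPM in input, and that of the oligodendrocyte markers was 161 to 183 CPM in IP and 1377 to 1516 CPM in input. Summed levels of the oligodendrocyte precursor markers were 4.90 to 9.07 CPM in IP and 90.2 to 96.2 CPM in input, and of the microglial markers 4.14 to 6.02 CPM in IP and 55.3 to 59.7 CPM in input. In the endothelial list, 1 gene, Tek, had no IP read. In such bulk RNA, fewer cells of a type and less RNA per cell cannot be told apart.

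The short dynein light chains show the size contrast within the family. Their coding sequences are given here because they are among the shortest of the motor genes and because close copies limit what read counting can separate. Capitals mark the bases that differ between the 2 genes of a pair after alignment, and sequences run from start to stop codon on the sense strand (GENCODE M21 transcripts, GRCm38). Dynll1 lies at chr5:115297110-115300999 (minus strand) and Dynll2 at chr11:87979525-87987533 (minus strand). Dynlrb1 lies at chr2:155236533-155250277 (plus strand) and Dynlrb2 at chr8:116504974-116515915 (plus strand).
Dynll1: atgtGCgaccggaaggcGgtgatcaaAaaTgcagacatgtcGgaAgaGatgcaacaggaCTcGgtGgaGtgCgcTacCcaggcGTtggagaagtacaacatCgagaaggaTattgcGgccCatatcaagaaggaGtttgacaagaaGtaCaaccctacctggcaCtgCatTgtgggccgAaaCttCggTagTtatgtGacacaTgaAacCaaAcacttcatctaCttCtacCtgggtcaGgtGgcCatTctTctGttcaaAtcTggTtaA
Dynll2: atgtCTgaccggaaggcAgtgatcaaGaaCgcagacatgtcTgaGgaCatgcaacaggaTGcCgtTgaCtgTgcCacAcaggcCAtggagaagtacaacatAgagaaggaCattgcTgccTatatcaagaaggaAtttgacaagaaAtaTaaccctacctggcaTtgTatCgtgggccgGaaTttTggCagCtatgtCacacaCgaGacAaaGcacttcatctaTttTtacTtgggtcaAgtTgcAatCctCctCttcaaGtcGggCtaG
Dynlrb1: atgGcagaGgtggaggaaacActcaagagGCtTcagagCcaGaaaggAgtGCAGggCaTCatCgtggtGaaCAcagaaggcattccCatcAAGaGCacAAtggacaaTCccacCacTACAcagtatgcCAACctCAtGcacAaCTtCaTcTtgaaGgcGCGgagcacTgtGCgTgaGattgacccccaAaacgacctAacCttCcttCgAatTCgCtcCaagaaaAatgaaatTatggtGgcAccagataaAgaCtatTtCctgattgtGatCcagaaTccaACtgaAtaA
Dynlrb2: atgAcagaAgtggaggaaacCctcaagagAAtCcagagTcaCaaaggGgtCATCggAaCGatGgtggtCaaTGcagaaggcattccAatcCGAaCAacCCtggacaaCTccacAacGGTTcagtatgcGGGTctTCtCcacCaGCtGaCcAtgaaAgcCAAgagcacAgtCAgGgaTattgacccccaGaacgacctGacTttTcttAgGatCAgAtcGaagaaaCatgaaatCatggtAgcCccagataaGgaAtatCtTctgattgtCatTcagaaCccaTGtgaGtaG
Dynll1 and Dynll2 differed at 51 of 270 bases (81.1% identity), with no identical stretch longer than 16 bases, and Dynlrb1 and Dynlrb2 at 82 of 291 bases (71.8%), with none longer than 13. The Dynlt1 genes are far closer: the coding sequences of Dynlt1a and Dynlt1f were identical over 342 bases, and that of Dynlt1b differed from Dynlt1a at 1 base. At the other end of the family, the longest coding sequence was that of the dynein heavy chain gene Dync1h1, at 13932 bases without its stop codon.

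Of the 67 genes, 56 had enough reads to be tested. In IP, 15 passed as higher and 13 as lower by edgeR's quasi-likelihood test, at a p under 0.05 after Benjamini-Hochberg adjustment over all 16506 tested genes, of which 21.3% were higher and 23.4% lower (44.8% in either direction). With library sizes taken as plain totals, which raised the median of all tested genes by 0.09, the counts were 20 higher and 11 lower (background 25.8% and 20.8%, together 46.6%). Without input replicate 2 or without input replicate 3, 8 were lower in each case. Together the 67 genes made up 8371 to 8830 CPM in IP and 8161 to 8582 CPM in input, ranges that overlap. The median log2 fold change of the tested motor genes was -0.04, and that of all tested genes -0.02. The family as a whole thus stood near the background. The contrast of motor chains with short light chains was chosen with earlier results of these data known and is given as description. Of 37 tested heavy chains or motor chains, 13 were lower and 2 higher (median -0.40), while 4 of 5 tested short dynein light chains were higher and 0 lower (median 0.94). Without the mitotic kinesins, which had few reads, 10 of 28 tested motor chains were lower and 2 higher (median -0.24). Offsets for exon length and GC content, described further on, came in 2 forms (smooth means and robust), each with and without a replicate block, 4 in all. With the robust one, 8 of the 37 motor chains were lower and 7 higher, and the same number of light chains, 4, was higher. Of 14 tested accessory chains (kinesin light chains, dynein intermediate and light intermediate chains, dynactin), 9 were higher and 0 lower (median 0.57). In lanes 1, 2 and 3 the median was -0.22, -0.30 and -0.33 for the motor chains and 0.98, 0.93 and 0.79 for the light chains. IP libraries lay above all input libraries for 18 of the 56 tested genes and below them for 17, against 26.5% and 29.5% of all tested genes (56.1% together).

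**Figure D1:**
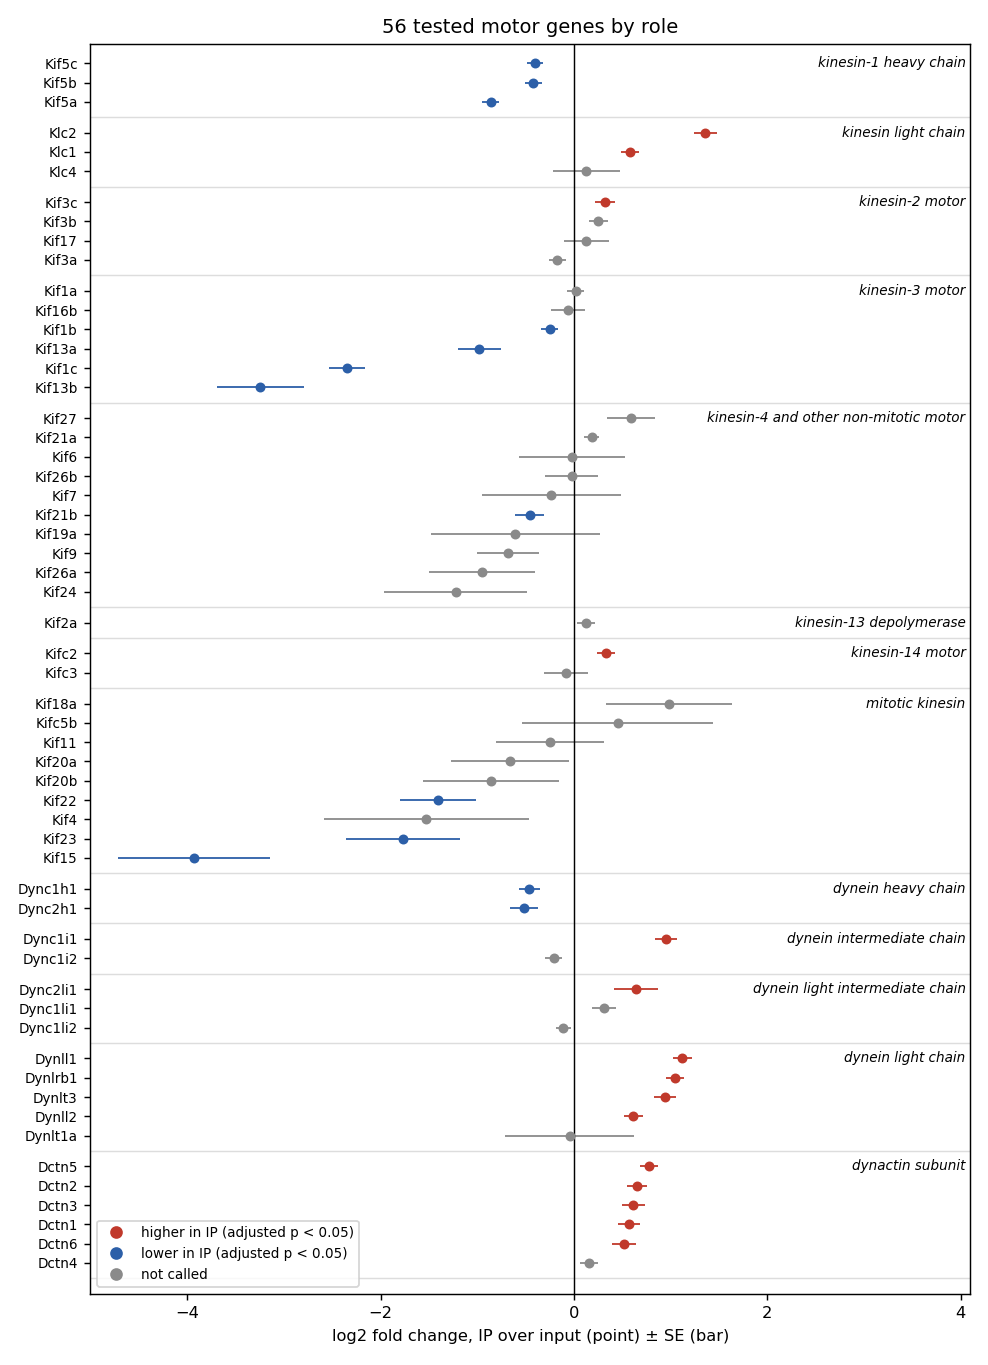
Log2 fold change, IP over input, with SE, of the 56 tested motor genes, grouped by subunit role from top to bottom; red marks genes higher in IP, blue genes lower in IP and grey genes that did not pass. The 5 heavy chains of kinesin-1 and dynein lie left of 0, and 9 of the 11 tested dynein light chain and dynactin genes lie right of it in red.

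Kinesin-1, the main carrier of anterograde axonal cargo, is built of 2 kinds of chain, and they differed in direction. All 3 heavy chain genes were lower in IP, although Kif5b was not called once exon length and GC content were taken into account. Kif5a, the neuron-enriched heavy chain at chr10:127225696-127263348 (minus strand), had 629, 616 and 718 CPM in IP replicates 1 to 3, against 1115, 1230 and 1220 CPM in input. Its log2 fold change was -0.86 (SE 0.09, adjusted p = 1.6e-05), and every IP library lay far below every input. Kif5c, also enriched in neurons, had 855, 942 and 870 CPM in IP and 1111, 1159 and 1251 CPM in input (log2 fold change -0.40, SE 0.08, adjusted p = 0.0019). Under each of the 4 offsets it passed too, at a log2 fold change of -0.20 to -0.22. The widely expressed Kif5b had 153, 175 and 157 CPM in IP and 220, 200 and 229 CPM in input (log2 fold change -0.42, SE 0.09, adjusted p = 0.0031). Its call was lost under all 4 offsets (log2 fold change -0.21 to -0.22, adjusted p = 0.058 to 0.060). For both, the groups did not overlap.

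The light chains, which link kinesin-1 to cargo through their tetratricopeptide repeats, were higher where they were abundant. Klc2, at chr19:5107746-5118560 (minus strand), had 186, 232 and 256 CPM in IP, against 81.3, 93.3 and 88.4 CPM in input. Its log2 fold change of 1.36 (SE 0.12, adjusted p = 5.7e-06) was the highest of the 56 tested motor genes, although 13.7% of its exon bases are shared with an antisense gene. Klc1, the predominant neuronal light chain, had 383, 384 and 447 CPM in IP and 279, 282 and 253 CPM in input (log2 fold change 0.58, SE 0.09, adjusted p = 0.00038). Neither gene's groups overlapped. Klc4 was low, at 5.05 ± 1.55 CPM in IP and 4.64 ± 2.01 CPM in input (SD, n = 3 each), and did not pass (log2 fold change 0.13, SE 0.34, adjusted p = 0.79). Klc3, a light chain known mainly from testis, was too low to test, with 25, 14 and 6 reads in IP replicates 1 to 3 and 0, 0 and 4 in input. In replicate 3 the levels were 0.0879 CPM in IP and 0.0819 CPM in input, so the difference rests on the other 2 lanes, and 28.5% of its exon bases lie in the oppositely oriented gene Ercc2.

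Set per kilobase of exon, the summed level of the 4 light chain genes over that of the 3 heavy chain genes was 0.761, 0.778 and 0.884 in IP replicates 1 to 3, against 0.329, 0.321 and 0.279 in input. This ratio does not depend on library scaling, and the groups lay far apart. The same exon lengths divide both groups, so the ratio still carries the trend of fold change with length described further on. Paralogue shares also differed. Kif5a made up 37.5%, 34.6% and 40.2% of the length-scaled heavy chain level in IP and 44.5%, 46.5% and 44.2% in input. Kif5c made up 52.0%, 54.0% and 49.6% in IP and 45.3%, 44.7% and 46.2% in input. Kif5c thus led in every IP library, while in input the order of the 2 genes changed between libraries. Klc2 made up 31.8%, 36.6% and 35.4% of the length-scaled level of Klc1, Klc2 and Klc4 in IP, against 21.5%, 24.0% and 25.1% in input.

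**Figure D2:**
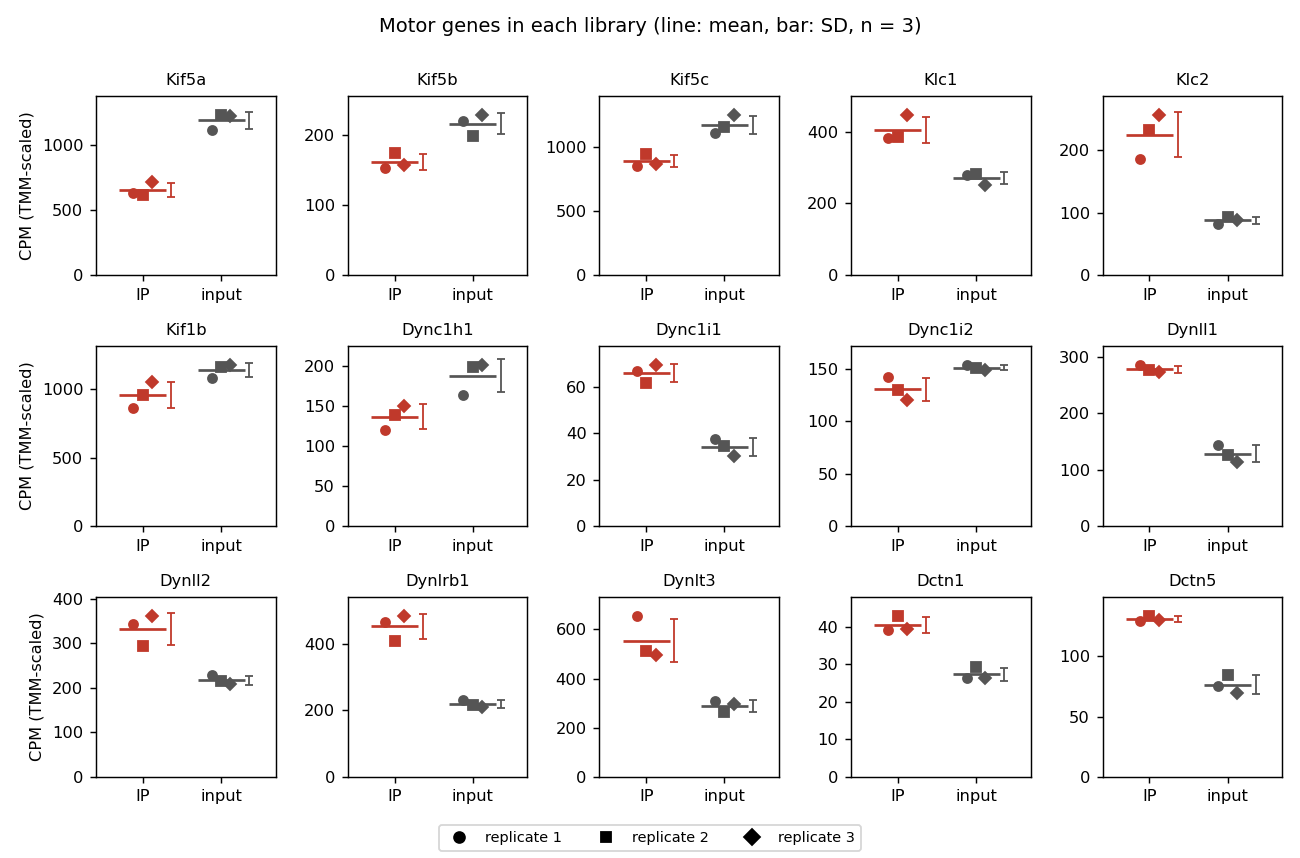
Level in CPM (TMM-scaled, axes from 0) of 15 motor genes in each IP library (red, left) and input library (grey, right); symbols mark replicates 1 to 3, lines the mean and bars the SD of 3. Kif5a, Kif5b, Kif5c and Dync1h1 sit lower in every IP library, and Klc1, Klc2, the 4 abundant dynein light chains, Dync1i1, Dctn1 and Dctn5 sit higher.

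The kinesin-3 family, fast motors of vesicle precursors and mitochondria, held 4 of the 13 motor chains that were lower. Kif1a, the carrier of synaptic vesicle precursors, had 667, 691 and 763 CPM in IP and 639, 707 and 748 CPM in input, with overlapping groups (log2 fold change 0.02, SE 0.09, adjusted p = 0.89). Kif1b, whose isoforms carry mitochondria or vesicle precursors, had 860, 960 and 1052 CPM in IP and 1083, 1164 and 1175 CPM in input (log2 fold change -0.25, SE 0.09, adjusted p = 0.037). That call was not firm: it was lost without IP replicate 1 (log2 fold change -0.17, adjusted p = 0.14) or 2 (-0.25, adjusted p = 0.066), without input replicate 1 (-0.27, adjusted p = 0.068), 2 (-0.25, adjusted p = 0.10) or 3 (-0.22, adjusted p = 0.13), with plain library totals (-0.16, adjusted p = 0.13) and without the filter on low counts (-0.23, adjusted p = 0.052), and an offset for exon length and GC content reversed it, as given below. Kif1c had 4.14, 6.29 and 4.82 CPM in IP and 25.7, 26.5 and 25.5 CPM in input (log2 fold change -2.35, SE 0.18, adjusted p = 2.3e-06). Kif13b had 0.466, 1.43 and 0.498 CPM in IP and 8.91, 8.39 and 5.61 CPM in input (log2 fold change -3.24, SE 0.45, adjusted p = 0.00014). In neither gene did the groups come close. Kif13a, which moves endosomes and mannose-6-phosphate receptors, had 10.9, 14 and 7.88 CPM in IP and 22.2, 25.6 and 17.1 CPM in input (log2 fold change -0.98, SE 0.22, adjusted p = 0.0037). Kif16b, an early endosome motor, had 15.6 ± 1.73 CPM in IP and 16.3 ± 2.91 CPM in input (log2 fold change -0.06, SE 0.17, adjusted p = 0.79). Every astrocyte, oligodendrocyte and microglial marker listed above was lower in IP as well, with medians of -3.88, -3.64 and -4.14, and their part in the falls of Kif1c, Kif13b and Kif13a was not tested.

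Among kinesin-2 motors, which serve intraflagellar and dendritic transport, differences were small. Kif3c had 180, 188 and 203 CPM in IP and 131, 158 and 167 CPM in input (log2 fold change 0.32, SE 0.11, adjusted p = 0.026). It did not pass without IP replicate 3 (log2 fold change 0.28, adjusted p = 0.067), input replicate 1 (0.25, adjusted p = 0.077) or input replicate 2 (0.34, adjusted p = 0.059), and 43.6% of its exon bases are shared with antisense genes. Kif3b had 122, 124 and 120 CPM in IP and 93.0, 98.8 and 116 CPM in input (log2 fold change 0.25, SE 0.10, adjusted p = 0.060). It passed with a replicate block (adjusted p = 0.045), with plain library totals (log2 fold change 0.35, adjusted p = 0.0098), without the filter on low counts (0.27, adjusted p = 0.049), with the length and GC offsets and without input replicate 3 (0.36, adjusted p = 0.018). Kif3a, the shared partner of both, had 283, 262 and 250 CPM in IP and 297, 283 and 315 CPM in input, with overlapping groups (log2 fold change -0.17, SE 0.09, adjusted p = 0.13). Kif17, a dendritic motor linked to NMDA receptor transport, had 11.5, 12 and 21.2 CPM in IP and 12.1, 14.9 and 13.8 CPM in input (log2 fold change 0.13, SE 0.23, adjusted p = 0.69), and IP replicate 3 stood above the other 5 libraries. Kifap3, the non-motor subunit of this complex, belongs to the adaptor list described below.

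The other non-mitotic kinesins passed in 2 cases. Kifc2, a minus-end directed motor of the C-terminal type known from neurons, had 190, 190 and 215 CPM in IP and 165, 154 and 152 CPM in input (log2 fold change 0.33, SE 0.09, adjusted p = 0.0096). Kif21b, a kinesin-4 that restrains microtubule growth, had 42.0, 41.1 and 59.6 CPM in IP and 58.2, 64.2 and 73.5 CPM in input (log2 fold change -0.46, SE 0.15, adjusted p = 0.028). Its groups overlapped through IP replicate 3, and the call was lost without IP replicate 1 (log2 fold change -0.37, adjusted p = 0.089) or 2 (-0.36, adjusted p = 0.090) and without input replicate 2 (-0.48, adjusted p = 0.062) or 3 (-0.35, adjusted p = 0.13). It was also lost with plain library totals (-0.36, adjusted p = 0.057) and with the offset from smooth means (-0.37, adjusted p = 0.0502) or the robust one (-0.26, adjusted p = 0.15), but not where a replicate block went with the offset (-0.38 and -0.28, adjusted p = 0.013 and 0.0498). Its relative Kif21a had 384, 367 and 396 CPM in IP and 344, 330 and 338 CPM in input, without overlap (log2 fold change 0.18, SE 0.08, adjusted p = 0.078), and it passed with plain library totals (0.27, adjusted p = 0.010) and with the offsets. Kif2a, a microtubule depolymerase of neurites, had 147, 153 and 171 CPM in IP and 148, 135 and 150 CPM in input (log2 fold change 0.12, SE 0.09, adjusted p = 0.32). Motors of cilia and of Hedgehog signalling were low. Kif27 averaged 5.73 ± 0.778 CPM in IP and 3.81 ± 0.294 CPM in input (log2 fold change 0.59, SE 0.25, adjusted p = 0.071) and passed with plain library totals (0.68, adjusted p = 0.042). Kif9 averaged 2.87 ± 1.08 CPM in IP and 4.59 ± 0.289 CPM in input (log2 fold change -0.68, SE 0.32, adjusted p = 0.11). Without IP replicate 1, Kif9 passed (log2 fold change -1.02, adjusted p = 0.020), as did Kif24 (-2.17, adjusted p = 0.035), which also passed with a replicate block (-1.54, adjusted p = 0.049). In the main test Kif24 averaged 0.943 ± 0.855 CPM in IP and 2.20 ± 1.40 CPM in input (log2 fold change -1.22, SE 0.74, adjusted p = 0.20). The remaining ones, Kif6, Kif7, Kif19a, Kif26a and Kif26b, had means of at most 3.76 CPM in either group, and none passed. Kifc3, another C-terminal motor, had 6.38 ± 1.32 CPM in IP and 6.77 ± 0.617 CPM in input and did not pass (log2 fold change -0.08, SE 0.23, adjusted p = 0.79). No read fell on Kif12 or Kif2b in any library, which at these depths allows up to 0.0796 CPM in the shallowest one.

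Mitotic kinesins, which build and separate the spindle in dividing cells, were low in this adult tissue. The 13 genes summed to 5.68 to 6.92 CPM in IP and 11.1 to 13 CPM in input. Of 9 that could be tested, 3 were lower and 0 higher. Kif15 had 20 reads over the IP libraries and 210 over the inputs, at 0.107 ± 0.0591 CPM in IP and 1.65 ± 0.984 CPM in input (log2 fold change -3.93, SE 0.78, adjusted p = 0.0017). Kif22, which pushes chromosome arms, had 1.06, 1.118 and 1.07 CPM in IP and 2.37, 3.02 and 3.19 CPM in input (log2 fold change -1.40, SE 0.39, adjusted p = 0.012). Without input replicate 2 or 3 its adjusted p was 0.055 and 0.061, at log2 fold changes of -1.37 and -1.30. Kif23, a motor of the central spindle, had 0.323, 0.502 and 0.410 CPM in IP and 1.01, 1.89 and 1.33 CPM in input (log2 fold change -1.77, SE 0.59, adjusted p = 0.029). It did not pass with a replicate block (adjusted p = 0.058), without IP replicate 1 (log2 fold change -1.62, adjusted p = 0.057) or without input replicate 2 (-1.51, adjusted p = 0.15) or 3 (-1.79, adjusted p = 0.077). Kif18b, too low to test, had 1 read over the IP libraries and 39 over the inputs, with 0, 0 and 1 in IP replicates 1 to 3 and 6, 12 and 21 in input, an input to IP ratio of 55.6 with an exact 95% counting interval of 9.41 to 2252 that rests on the 1 IP read. Kif14 had 20 reads in IP and 43 in input, 36 of them in input replicate 2, Kif2c had 0 in IP and 5 in input, and Kifc1 had 3 in IP and 2 in input. The 6 tested ones that did not pass, Kif4, Kif11, Kif18a, Kif20a, Kif20b and Kifc5b, had log2 fold changes of -1.53 to 0.99 with SE of 0.56 to 1.06. Of 15 proliferation markers, 10 could be tested and 0 passed, at log2 fold changes of -1.59 to 0.70 (median -1.07). The highest value was that of Mki67, the most abundant of them. The proliferation markers summed to 7.48 to 8.92 CPM in IP and 9.91 to 11.4 CPM in input. Markers of motile cilia summed to 8.59 to 13.8 CPM in IP and 13 to 15.7 CPM in input, and 1 of 7 tested was lower. The part of such cells, or of the glial cells whose markers were lower, in the values of the mitotic genes was not tested.

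Cytoplasmic dynein showed the same split between heavy and light chains in the main test, but its heavy chain side was lost with the length and GC offsets. Dync1h1, the heavy chain of the axonal retrograde motor at chr12:110601452-110666945 (plus strand), had 119, 139 and 150 CPM in IP and 163, 198 and 200 CPM in input. Its log2 fold change was -0.46 (SE 0.11, adjusted p = 0.0057), and the highest IP library lay below the lowest input. With the 4 offsets its log2 fold change was -0.02 to -0.05 and it did not pass (adjusted p = 0.65 to 0.84). Dync2h1, the heavy chain of the ciliary dynein, had 31.0, 35.2 and 27.3 CPM in IP and 37.3, 47.0 and 49.5 CPM in input (log2 fold change -0.52, SE 0.14, adjusted p = 0.011). That call was lost without input replicate 2 (log2 fold change -0.49, adjusted p = 0.052) and without input replicate 3 (-0.42, adjusted p = 0.071), and with the 4 offsets the log2 fold change lay between -0.04 and 0.0053 (adjusted p = 0.83 to 0.98).

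All 4 abundant light chain genes were higher in IP, with no overlap between the groups. Dynll1, whose reading frame is printed above, encodes the LC8 hub protein that pairs subunits of dynein and of many other complexes. It had 284, 277 and 272 CPM in IP and 143, 126 and 114 CPM in input (log2 fold change 1.119, SE 0.10, adjusted p = 5.2e-06). Its paralogue Dynll2 had 344, 293 and 361 CPM in IP and 228, 216 and 208 CPM in input (log2 fold change 0.62, SE 0.10, adjusted p = 0.00033). Dynlrb1, the roadblock light chain, had 466, 410 and 485 CPM in IP and 233, 215 and 211 CPM in input (log2 fold change 1.05, SE 0.09, adjusted p = 5.0e-06). Dynlt3, a Tctex-type light chain at chrX:9654267-9663003 (minus strand), had 654, 514 and 494 CPM in IP and 306, 262 and 296 CPM in input (log2 fold change 0.94, SE 0.11, adjusted p = 5.4e-05). Dynll1 took 50.6%, 53.9% and 48.2% of the length-scaled level of Dynll1 and Dynll2 in IP, against 43.8%, 42.0% and 40.4% in input.

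The remaining light chains carried few reads. Dynlt1a had 0.735, 0.401 and 1.22 CPM in IP and 0.763, 0.477 and 1.19 CPM in input (log2 fold change -0.04, SE 0.66, adjusted p = 0.96), and Dynlt1b and Dynlt1f had at most 23 reads over a group. Reads shared by these identical copies are left out by the counting, so their values are uncertain. Dynlrb2, a roadblock chain of ciliated cells, had 0, 0 and 6 reads in IP replicates 1 to 3 and 24, 13 and 3 in input. IP was thus lower in 2 lanes, while in lane 3 it had 0.0879 CPM in IP and 0.0614 CPM in input.

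Among chains between these extremes, paralogues differed from each other. Dync1i1, the neuron-enriched intermediate chain at chr6:5725639-6028039 (plus strand), had 66.8, 61.6 and 69.2 CPM in IP and 37.6, 34.6 and 30.1 CPM in input (log2 fold change 0.95, SE 0.12, adjusted p = 6.1e-05). Dync1i2, found in most cell types, had 142, 130 and 120 CPM in IP and 153, 151 and 149 CPM in input (log2 fold change -0.21, SE 0.09, adjusted p = 0.078), and it passed with DESeq2 (-0.23, adjusted p = 0.047), with the 1 CPM filter (-0.26, adjusted p = 0.034), with the robust offset and without IP replicate 1 (-0.27, adjusted p = 0.045). Dync1i1 accounted for 32.3%, 32.5% and 36.9% of their combined length-scaled level in IP, against 19.9%, 18.8% and 17.0% in input, although exon lengths of the 2 genes were nearly equal at 2802 and 2837 bases. Of the light intermediate chains, which hold cargo adaptors, Dync1li2 had 450, 441 and 446 CPM in IP and 490, 465 and 486 CPM in input (log2 fold change -0.11, SE 0.08, adjusted p = 0.27). Dync1li1 had 43.0, 40.0 and 42.6 CPM in IP and 29.1, 38.2 and 33.9 CPM in input (log2 fold change 0.31, SE 0.13, adjusted p = 0.065) and passed with plain library totals (0.40, adjusted p = 0.026), with the offset from smooth means (0.34, adjusted p = 0.039) and without input replicate 2 (0.40, adjusted p = 0.049). The ciliary Dync2li1 had 18.3, 14.6 and 9.92 CPM in IP and 10.6, 8.58 and 8.21 CPM in input, with overlapping groups (log2 fold change 0.64, SE 0.23, adjusted p = 0.037). Its call was lost without IP replicate 1 (log2 fold change 0.43, adjusted p = 0.14) or 2 (0.63, adjusted p = 0.064), without input replicate 2 (0.59, adjusted p = 0.13) or 3 (0.59, adjusted p = 0.12), with limma-voom (adjusted p = 0.054) and with the offsets (0.39 to 0.44, adjusted p = 0.094 to 0.12).

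Dynactin, the cofactor that ties dynein to cargo and makes it processive, was higher in 5 of 6 Dctn genes. Dctn1, the p150Glued arm that grips microtubules, had 39.2, 42.9 and 39.4 CPM in IP and 26.4, 29.3 and 26.3 CPM in input (log2 fold change 0.57, SE 0.12, adjusted p = 0.0020). At 4996 exon bases it is longer than the other called dynactin genes, which have 973 to 1784. Dctn2, the shoulder subunit dynamitin, had 95.5, 86.1 and 98.3 CPM in IP and 64.9, 55.5 and 57.3 CPM in input (log2 fold change 0.66, SE 0.10, adjusted p = 0.00037). Dctn5, a pointed-end subunit, had 129, 134 and 130 CPM in IP and 75.7, 84.6 and 69.5 CPM in input (log2 fold change 0.78, SE 0.10, adjusted p = 7.3e-05). Dctn3 and Dctn6 had log2 fold changes of 0.61 and 0.52 (adjusted p = 0.0013 and 0.0043). In these 5 genes the groups did not overlap. Dctn4, another pointed-end subunit, had 136, 134 and 117 CPM in IP and 119, 111 and 118 CPM in input (log2 fold change 0.15, SE 0.09, adjusted p = 0.20), and with plain library totals it passed (0.25, adjusted p = 0.048). The actin-related filament and capping subunits of dynactin, listed separately, went the same way, with 4 of 6 higher and 0 lower (median 0.38). Among them Capzb had 299 ± 11.9 CPM in IP and 165 ± 13.2 CPM in input (SD, n = 3 each, log2 fold change 0.86, adjusted p = 1.8e-05).

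Per kilobase of exon, the dynein light chains together stood at 123, 90.7 and 92.3 times the level of Dync1h1 in IP, against 45.9, 34.2 and 34.0 times in input. The 6 Dctn genes together stood at 40.6, 35.8 and 32.6 times in IP and 20.3, 17.0 and 15.1 times in input, and the 2 intermediate chains at 8.88, 7.01 and 6.40 times in IP and 5.91, 4.75 and 4.53 times in input. In each of these ratios the IP libraries lay above all inputs. The intermediate chains themselves summed to 189 to 209 CPM in IP and 179 to 191 CPM in input, ranges that overlap. Dync1h1, the divisor, was lower in IP in the main test but did not pass with the offsets, which these ratios do not include. LC8 and roadblock proteins serve complexes other than dynein, so these are ratios of RNA and not of motor assemblies.

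**Figure D3:**
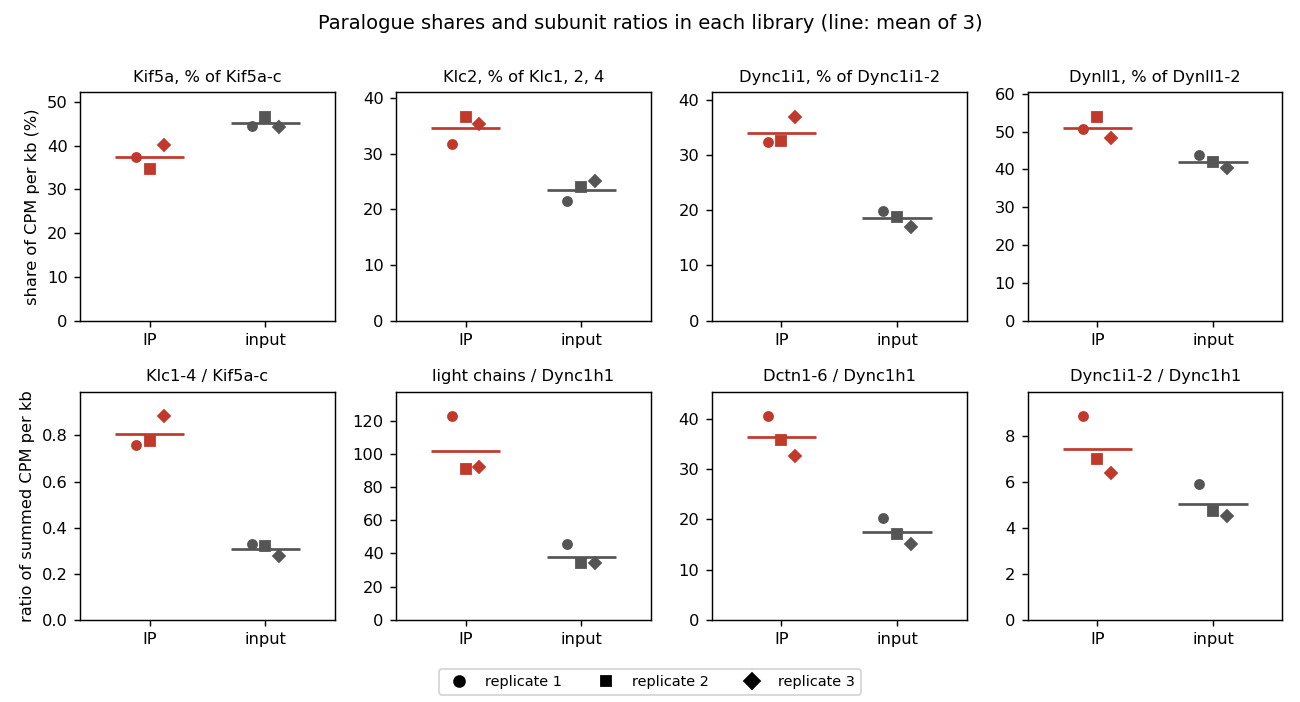
Upper row: share, in percent of length-scaled CPM, of 1 paralogue in its group; lower row: ratio of summed length-scaled CPM of lighter chains to heavy chains, for each IP library (red, left) and input library (grey, right), with axes from 0. Kif5a has a smaller share in IP and Klc2, Dync1i1 and Dynll1 a larger one, and all 4 ratios are higher in every IP library. No offset for exon length and GC content is applied.

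Length moved with these differences. Over the 56 tested motor genes, the log2 fold change and exon length had a Spearman rho of -0.57, and over the 36 with a mean of at least 5 CPM it was -0.79. Over all 14971 tested genes with a known length it was -0.26, and over the 10042 of them with a mean of at least 5 CPM -0.46; these are correlations across genes that share the same 6 libraries, given as description. When all tested genes were ordered by exon length into 5 groups of nearly equal size, the median log2 fold change was 0.39 in the shortest group (up to 1872 bases) and -0.23 in the longest (5562 bases and more). In the shortest group all 6 motor genes were higher, where 36% of all its genes were. The longest group held 20 motor genes, of which 10 were lower and 1 higher, where 36.5% of all its genes were lower. Within the 37 motor chains alone the rho was -0.15 with exon length and -0.30 with coding length. Within the 19 accessory and light chains it was -0.44 with exon length and -0.31 with coding length.

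**Figure D4:**
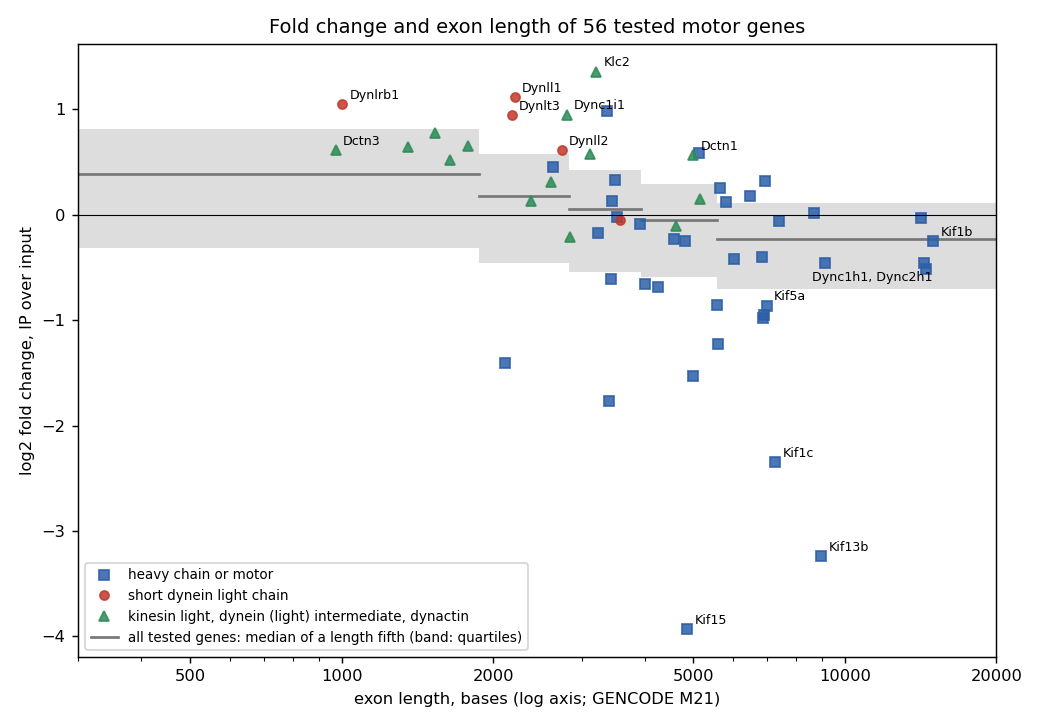
Log2 fold change, IP over input, of the 56 tested motor genes against exon length (log axis); grey lines are the medians and grey bands the quartiles of all tested genes in 5 length groups, drawn to the edges of the axis. Dynein light chains (red) and accessory chains (green) lie mostly above the median line of their length group, and the longest motor chains (blue) mostly at or below it.

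Offsets for exon length and GC content, estimated in each library over all genes, were therefore set beside the main fit. A robust loess offset moved the median of all tested genes by 0.07 and left 24.5% of them higher and 18.8% lower (43.3% together), with 19 motor genes higher and 9 lower. An offset from smooth means gave 19 higher and 8 lower, against 24.8% and 18.9% of all tested genes (43.7% together). The values that follow are from the robust one unless stated otherwise. Under it neither dynein heavy chain passed, with a log2 fold change of -0.02 for Dync1h1 (adjusted p = 0.84) and -0.04 for Dync2h1 (adjusted p = 0.84). Kif5a stayed lower (log2 fold change -0.72, adjusted p = 2.9e-05), as did Kif5c (-0.22, adjusted p = 0.013), while Kif5b did not pass (-0.21, adjusted p = 0.060). Kif1b turned to 0.23 and passed as higher (adjusted p = 0.021). Kif1a (0.22, adjusted p = 0.029), Kif21a (0.36, adjusted p = 0.0028), Kif2a (0.39, adjusted p = 0.0054), Kif3b (0.39, adjusted p = 0.0031), Kif27 (0.72, adjusted p = 0.032) and Dctn4 (0.28, adjusted p = 0.016) passed as higher with it and had not passed in the main test. Dync1i2 passed as lower (-0.21, adjusted p = 0.048). With the offset from smooth means neither Kif1a (0.12, adjusted p = 0.18) nor Dync1i2 (-0.15, adjusted p = 0.16) passed. With the robust offset the falls of Kif1c (-2.21), Kif13b (-3.04) and Kif13a (-0.84) were kept. All 4 abundant dynein light chains remained higher, at 1.07 for Dynll1, 0.54 for Dynll2, 0.65 for Dynlrb1 and 1.08 for Dynlt3, as did Klc1 (0.49), Klc2 (1.17) and Dync1i1 (0.90). Dctn3, the shortest dynactin gene at 973 exon bases, lost its call (0.25, adjusted p = 0.11), as did Kifc2 (0.19, adjusted p = 0.067), Kif21b (-0.26, adjusted p = 0.15) and Dync2li1 (0.44, adjusted p = 0.11). With the replicate block added to the robust offset, Dctn3 (0.24, adjusted p = 0.041) and Kif21b (-0.28, adjusted p = 0.0498) passed, while Kifc2 (0.19, adjusted p = 0.052) and Dync2li1 (0.41, adjusted p = 0.094) did not.

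**Figure D5:**
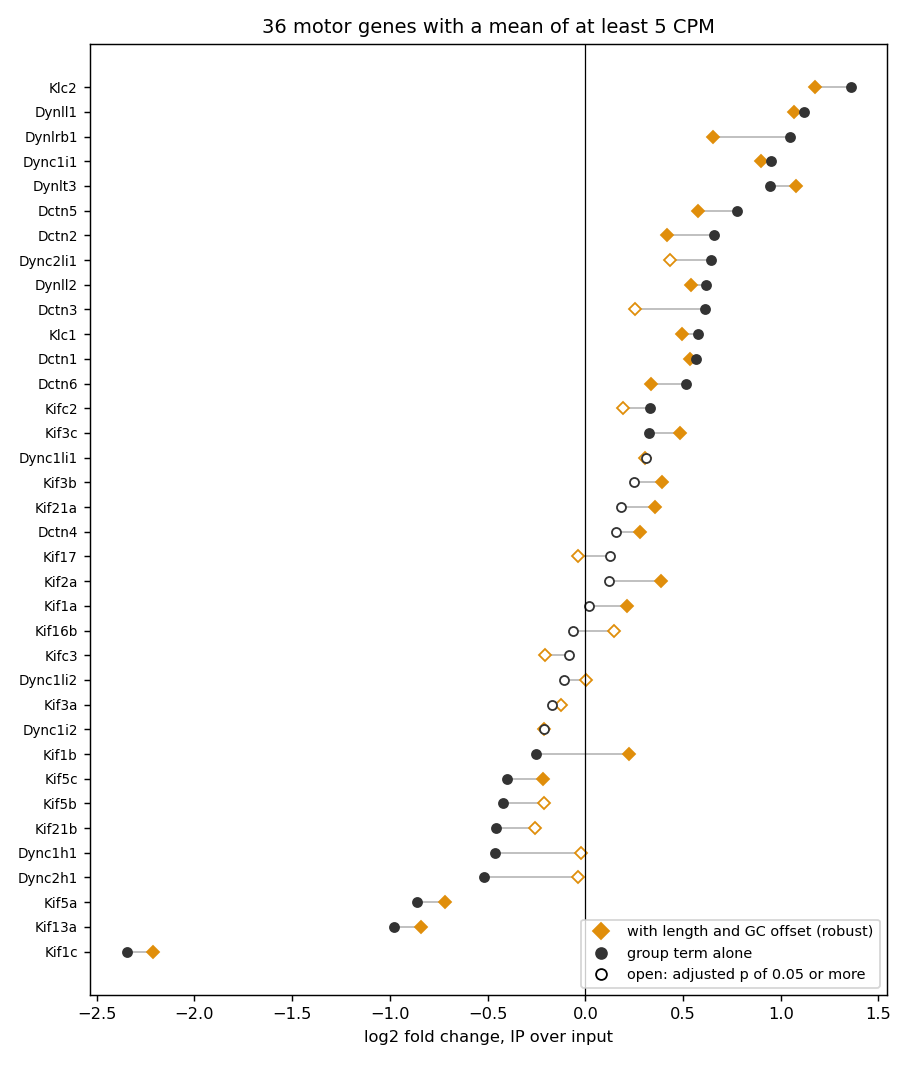
Log2 fold change, IP over input, of the 36 motor genes with a mean of at least 5 CPM, from the main fit (black circles) and after the robust offset for length and GC (orange diamonds), ordered from highest to lowest; open symbols did not pass. Dync1h1 and Dync2h1 move to 0 and Kif1b crosses it, while Klc2, Dynll1, Dync1i1, Dynlt3, Kif5a and Kif1c keep their side.

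Partners of the motors were described from lists chosen by function. Of all tested genes, 21.3% were higher and 23.4% lower in IP, and no list was tested against these shares. The values of these lists are from the main test alone. How far their calls hold with the length and GC offsets or without single libraries is not given. Of 17 kinesin adaptors and cargo linkers, 5 were higher and 2 lower (median 0.21). The lysosome-linking GTPase gene Arl8b rose to 291 ± 7.03 CPM in IP, against 168 ± 5.58 CPM in input (log2 fold change 0.79, adjusted p = 1.5e-05), and its paralogue Arl8a to 248 ± 24.7 CPM, against 164 ± 8.98 CPM (0.60, adjusted p = 0.00040). The JNK scaffold gene Mapk8ip2 fell to 30.3 ± 4.52 CPM in IP, against 50.3 ± 4.09 CPM in input (-0.73, adjusted p = 0.00091). Of 4 adaptors shared by kinesin and dynein, Mapk8ip3 was higher (0.30, adjusted p = 0.032) and Spag9 lower (-0.25, adjusted p = 0.030). Among 14 dynein regulators and activating adaptors, 2 were higher and 6 lower (median -0.05). Pafah1b1, the lissencephaly gene Lis1 and the most abundant of them, had 734 ± 20.9 CPM in IP and 717 ± 73.8 CPM in input (log2 fold change 0.03, adjusted p = 0.78). Its binding partners split: Ndel1 had 63.8 ± 4.82 CPM in IP and 45.8 ± 7.45 CPM in input (0.48, adjusted p = 0.0094), whereas Nde1 had 0.503 ± 0.235 CPM in IP and 6.18 ± 0.737 CPM in input (-3.62, adjusted p = 3.0e-05). Of 3 dynein-2 partner genes, Tctex1d2 (1.02, adjusted p = 0.0012) and Wdr34 (0.70, adjusted p = 0.0056) were higher and Wdr60 did not pass (-0.35, adjusted p = 0.072).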

How the data were processed

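The authors deposited 1 table per library with raw, unnormalized counts for each gene symbol. Reads were aligned with STAR 2.0.0e to mm10 and counted with HTSeq, per the submitters' processing notes. The sources used here do not give the HTSeq version, strand setting or annotation. It is thus not known whether reads on exon bases shared with an antisense gene were counted or set aside as falling on several genes. Rows naming no gene were left out. They held 8.78% ± 0.162 (reads outside genes), 1.82% ± 0.0772 (several genes) and 34.4% ± 1.43 (several places) of listed reads in IP, and 17.2% ± 0.722, 8.99% ± 0.856 and 22.4% ± 1.21 in input. Libraries of a group differed far beyond sampling noise (chi-square per degree of freedom 23.2 to 68.8), so none is a copy.

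The main test was edgeR 4.0.16 (R 4.3.3): quasi-likelihood, TMM, filterByExpr, a group term alone, two-sided, Benjamini-Hochberg over 16506 genes. It was tested on simulated data with 200 changed genes. Exon lengths, GC content and coordinates come from GENCODE M21 (GRCm38), which matched all 67 members and 90.7% of tested genes by symbol. Values within a lane use log2(CPM + 0.5). Every member may be named, and from each other list the called genes that moved most and the most abundant one. The members and lists were chosen with earlier results of these data known. PCR reads are not independent molecules, and intervals and floors therefore cover only counting error.

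Per the labels, replicates 1 to 3 ran in lanes 1 to 3, and each lane held 1 IP and 1 input library. Deviations from group means correlated at 0.125, 0.0860 and 0.0466 between same-numbered libraries and at -0.0835 to 0.00663 otherwise. Index and group coincide and cannot be told apart. Alternatives were a replicate block, RLE size factors, total counts, DESeq2 1.42.0, limma-voom (limma 3.58.1), no filter, at least 1 CPM in 3 libraries, length and GC offsets with and without the block (smooth means from mgcv, and, added after seeing the data, robust loess), and leaving out each library.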

Additional observations from a re-analysis of the deposited data

Results flagged for a closer look

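Reads that aligned to several places, which are not counted for any gene, made up 34.4% of the listed reads in IP (SD 1.43, n = 3) and 22.4% in input (SD 1.21, n = 3). This is a signal outside the gene counts that stood higher in every IP library than in every input library. It bears on members with identical copies, the Dynlt1 genes, and its source was not tested. Reads on several genes (1.82% in IP, 8.99% in input) and reads outside genes (8.78% and 17.2%) are not counted either. Both stood lower in every IP library than in every input library. The first kind bears on the 18 members whose exons overlap another gene, Klc2 and Kif3c among them. Its part in their fold changes was not tested. With 3 libraries a group, single libraries were not tested for standing apart from the others.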

How the results depend on the processing

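Over 17 alternatives, 35 of the 56 tested motor genes kept their direction where called and their side of the threshold, and 17 of the 28 called ones were called the same way in all. Leaving out single libraries gave 8 to 15 members lower in place of 13, 1 to 3 motor chains higher in place of 2, 8 to 14 motor chains lower in place of 13, and a light chain median of 0.71 to 1.01 in place of 0.94. For the motor chains, plain totals gave 5 higher and a median of -0.31, and the 1 CPM filter a median of -0.30. The light chain median was 0.27 in DESeq2 and 0.30 without a filter, where poorly covered genes also entered. The length and GC offset, without and with the replicate block, gave 8 members lower in both, 6 motor chains higher, 8 motor chains lower, medians of -0.198 and -0.198 for motor chains and 0.610 and 0.611 for light chains. The robust form gave 7 motor chains higher and 8 lower without and with the block, medians of -0.206 and -0.212 for motor chains and 0.651 for light chains in both. Called values that changed sign were Kif1b, at 0.29 and 0.29 with the offset and 0.23 and 0.22 with its robust form, without and with the block, and Dync2h1, at 0.0052 and 0.0053 with the offset. The robust form is a variant chosen after seeing the data; the cause of these shifts was not tested beyond the offset itself. With the replicate block alone, 16 members were higher and 13 lower, and beyond Kif23, Kif24 and Kif3b it changed no other call. In every alternative 4 light chains and 5 or 6 Dctn genes were higher, and Kif5a and Kif5c were lower. Dctn1, Dctn2, Dctn5 and Dctn6 were higher in all of them. Dctn3 lost its call with the offset from smooth means, with or without the block, and with the robust one without the block. In these fits Dctn4 passed in its place. Precision is limited by 3 libraries a group and, for mitotic and ciliary genes, by read number.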

Other observations

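Myosins, the actin-based motors, offer a second family of long motor chains with short partners. Of 14 myosin heavy chain genes, 2 were higher and 5 lower in IP (median log2 fold change -0.12), and of 5 light chain genes 2 were higher and 1 lower (median 0.19). Of all tested genes, 21.3% were higher and 23.4% lower, and the myosin lists were not tested against these shares. The myosin values are from the main test alone, without the length and GC offsets. Myo5a, which carries organelles into dendritic spines, had 1190 ± 81.3 CPM in IP and 981 ± 55.4 CPM in input (SD, n = 3 each, log2 fold change 0.28, adjusted p = 0.017). Myo5b, a recycling endosome motor, had 48.8 ± 12.8 CPM in IP and 21.5 ± 0.872 CPM in input (1.18, adjusted p = 0.00027). Myo6, the minus-end directed myosin, had 6.15 ± 1.35 CPM in IP and 71.3 ± 3.70 CPM in input (-3.54, adjusted p = 2.9e-08), and the mitochondrial Myo19 had 1.04 ± 0.600 CPM in IP and 5.93 ± 0.821 CPM in input (-2.51, adjusted p = 0.0010). Of the light chains, Myl12b had 205 ± 16.0 CPM in IP and 120 ± 11.1 CPM in input (0.78, adjusted p = 8.4e-05) and Myl6b 40.4 ± 4.27 CPM in IP and 18.1 ± 4.35 CPM in input (1.16, adjusted p = 0.00027), while the smooth muscle gene Myl9 had 0.135 ± 0.118 CPM in IP and 2.10 ± 0.843 CPM in input (-3.90, adjusted p = 0.0042).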
